A study of Homo sapiens with 18 samples.

Results

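The regions described here come from ChIP-seq of the Ser5 form of RNA polymerase II (Pol II) in Rh30 cells. This form carries a phosphate on serine 5 of its C-terminal repeats. The comparison is of 2 h of dTAG47 with the solvent DMSO. All 12123 regions of the deposited table were taken, from 4 of the 18 libraries of the series. Rh30 is an established alveolar rhabdomyosarcoma line, and in every group used here the fusion protein PAX3-FOXO1 carries an FKBP tag. The treated cells received 500 nM dTAG47 for 2 h or 4 h, and each of the 3 groups has 2 libraries of ChIP-seq with an antibody against the Ser5 form. The 12 libraries made with antibodies against other forms of Pol II were not analysed here. The labels do not say whether the tagged line is 1 clone, or whether a group's pair of libraries comes from different cultures. What the p-values weigh is thus the scatter of these particular libraries, possibly technical in origin.

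Pol II that has just begun to transcribe is phosphorylated on serine 5 by the kinase of the initiation factor TFIIH. The mark is therefore densest near transcription start sites, where Pol II often pauses before it is released into the gene body. PAX3-FOXO1 joins the DNA-binding domains of PAX3 to the activation domain of FOXO1 and acts as an activator in alveolar rhabdomyosarcoma. An FKBP tag lets a dTAG molecule bring the tagged protein to an E3 ubiquitin ligase, after which the proteasome degrades it. The comparison at 2 h asks where initiating Pol II changes soon after the fusion protein is targeted. The fusion protein itself is not measured by these counts.

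Each region spans 400 bases in hg19 and is given by its chromosome and start as deposited. The gene table at hand is of another build, GRCh38.p14, and was not used to place hg19 regions. No region is therefore tied here to a gene, a promoter, a gene body or a class of short RNA genes, and markers of the muscle lineage were not checked. Counts were tested with edgeR's quasi-likelihood test, and a region was called where its Benjamini-Hochberg adjusted p over all regions was under 0.05. Signal is given as CPM, which divides each count by the library's size after edgeR's TMM scaling. Totals ran from 1343568 to 1792013 counts in the 4 libraries compared, with medians of 84 to 120 counts per region. The letters A and B name the libraries of a group as the columns do.

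Ser5 Pol II rose at 269 regions, 2.22% of those tested, and fell at 48, or 0.396%, so that 2.61% changed in either direction. In each called region both 2 h libraries lay beyond both DMSO libraries, an arrangement also seen upwards in 21.9% and downwards in 21.8% of all regions. The rises had a median log2 fold change of 0.67, with quartiles of 0.58 and 0.82. The falls had a median of -0.63, with quartiles of -0.74 and -0.57. Over all regions the median was -0.01, and 90% of the middle values lay between -0.41 and 0.46. Both kinds of called region began at similar levels, with a median DMSO signal of 87.7 CPM for the rises and 90.3 CPM for the falls, against 63.8 CPM over all regions. At 2 h those medians were 147 and 57.6 CPM.

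The regions that rose held 3.03% and 3.12% of the normalized signal in DMSO libraries A and B. In the 2 h libraries they held 5.07% and 4.93%. The regions that fell held 0.515% and 0.551% in DMSO and 0.317% and 0.327% at 2 h. The sets were chosen by these same counts, so the shares only describe their weight: most of the measured signal lay in regions of neither kind.

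The share of rises among the calls, and the counts behind it, depended on scaling and on single libraries. The share was 84.9% with TMM, and over the alternatives it ran from 65.6% to 97.0%, the highest with DESeq2. Scaling by total count made it 65.6%, from 166 rises and 87 falls. DESeq2 called 96 rises and 3 falls, and gave no adjusted p to 67 of the 269 rises and 30 of the 48 falls. Without DMSO library A 153 regions rose. Without 2 h libraries A and B in turn the rises were 140 and 127 and the falls 15 and 20, and without 4 h libraries A and B the falls were 87 and 80.

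**Figure D1:**
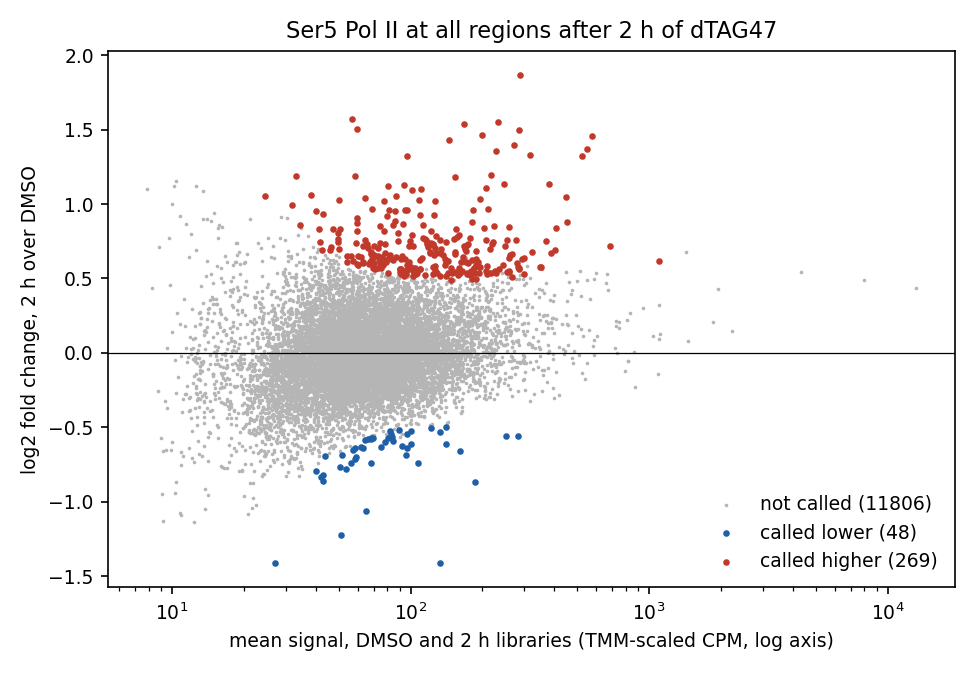
Each point is 1 of the 12123 regions, with its mean signal in the DMSO and 2 h libraries (TMM-scaled CPM, log axis) against its log2 fold change. The 269 regions called higher reach 1.87 on the log2 scale, and the 48 called lower reach -1.41.

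The libraries bounded large changes better than small ones. The 95% confidence interval of the fold change lay within 1.5-fold in either direction at 7457 regions, 61.5% of all, and within 2-fold at 11453, or 94.5%. It lay within 1.25-fold at only 385 regions, or 3.18%.  At the other end, the whole interval was above a 1.5-fold rise at 44 regions and above a 2-fold rise at 14. Only 4 regions had the whole interval beyond a 1.5-fold fall, and 1 beyond a 2-fold fall.

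The 15 largest rises and the 15 largest falls are numbered here by the size of their log2 fold change. By their DMSO signal, 6 of the 15 rises were among the 1000 highest regions and 0 among the highest 100. Their fold changes ran from 2.50 to 3.65, and even the lower 2 h library exceeded the higher DMSO library by 2.15-fold to 3.41-fold. Standard errors were 0.15 to 0.19 on the log2 scale, and the largest adjusted p was 9.80e-08 (edgeR). No alternative analysis that gave an adjusted p ended any of these 15 calls.

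Rise 1 lay on chromosome 15 at 65588533. Its signal was 126 and 122 CPM in DMSO libraries A and B and 475 and 431 CPM in 2 h libraries A and B. The DMSO values lay close together and both 2 h values stood far above them, a 3.65-fold difference (log2 fold change 1.87, 95% interval 1.55 to 2.18, edgeR adjusted p = 7.89e-12). Rise 6 lay 8537 bases away at 65597070, with 148 and 152 CPM in DMSO and 436 and 409 CPM at 2 h, a 2.82-fold difference. The next region on the other side, at 65578635, had 99.3 and 92.4 CPM in DMSO and 80.3 and 85.9 CPM at 2 h. It was not called, with a log2 fold change of -0.21 and an interval of -0.51 to 0.08.

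A pair on chromosome 1 had the same layout. Rise 3 at 45196343 went from 115 and 122 CPM in DMSO to 346 and 348 CPM at 2 h, a log2 fold change of 1.55. Rise 10 at 45187147, 9196 bases before it, went from 133 and 168 CPM to 388 and 401 CPM, a log2 fold change of 1.40. The region 8983 bases past rise 3 had 89.1 and 58.9 CPM in DMSO and 94.3 and 72.2 CPM at 2 h. Its libraries overlapped between the groups, and its log2 fold change of 0.15 was not called.

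On chromosome 17, 3 of 3 regions measured over 48.2 kb rose, in a stretch that begins and ends at a rise by construction. Rise 7 at 56708875 went from 95.6 and 118 CPM to 297 and 288 CPM, a log2 fold change of 1.46. The region at 56736365 went from 123 and 140 CPM to 304 and 299 CPM, a log2 fold change of 1.20. Rise 4 at 56756707 went from 83.7 and 87.6 CPM to 254 and 242 CPM, a log2 fold change of 1.54. All 3 ended at similar heights, with 2 h values from 242 to 304 CPM. The regions at 56591638 before them and 56769837 after them were not called, with log2 fold changes of 0.10 and 0.26.

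The highest levels belonged to rise 8, rise 11 and rise 15. Rise 8 on chromosome 1 at 28975143 had 281 and 337 CPM in DMSO and 866 and 829 CPM at 2 h. Rise 11 on chromosome 11 at 62608878 had 298 and 313 CPM in DMSO and 805 and 774 CPM at 2 h. Rise 15 on chromosome 1 at 11968404 had 290 and 308 CPM in DMSO and 804 and 691 CPM at 2 h. The 2 h libraries differed most in rise 15, where library B was lower, yet both stood above 2-fold over either DMSO library. Their log2 fold changes were 1.46, 1.37 and 1.32.

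The remaining rises began from DMSO means of 28.1 to 181 CPM. Rise 2 on chromosome 1 at 210547086 had 32.9 and 23.3 CPM in DMSO and 76.8 and 94.3 CPM at 2 h, with the widest spread of the 15. Rise 5 on chromosome 1 at 78469753 had 29.2 and 33.5 CPM in DMSO and 88.0 and 88.9 CPM at 2 h. Rise 9 on chromosome 17 at 8076517 had 81.0 and 75.3 CPM in DMSO and 218 and 204 CPM at 2 h. These began at different levels and rose 2.98-fold, 2.84-fold and 2.70-fold. Rise 12 on chromosome 2 at 122288541 went from 118 and 140 CPM to 320 and 338 CPM. Rise 13 on chromosome 12 at 120729385 went from 166 and 196 CPM to 478 and 431 CPM. Rise 14 on chromosome 6 at 26199004 went from 50.2 and 60.9 CPM to 145 and 131 CPM. The last 3 had log2 fold changes of 1.36, 1.33 and 1.32. In none of the 15 rises did the groups overlap, as the naming rule requires.

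**Figure D2:**
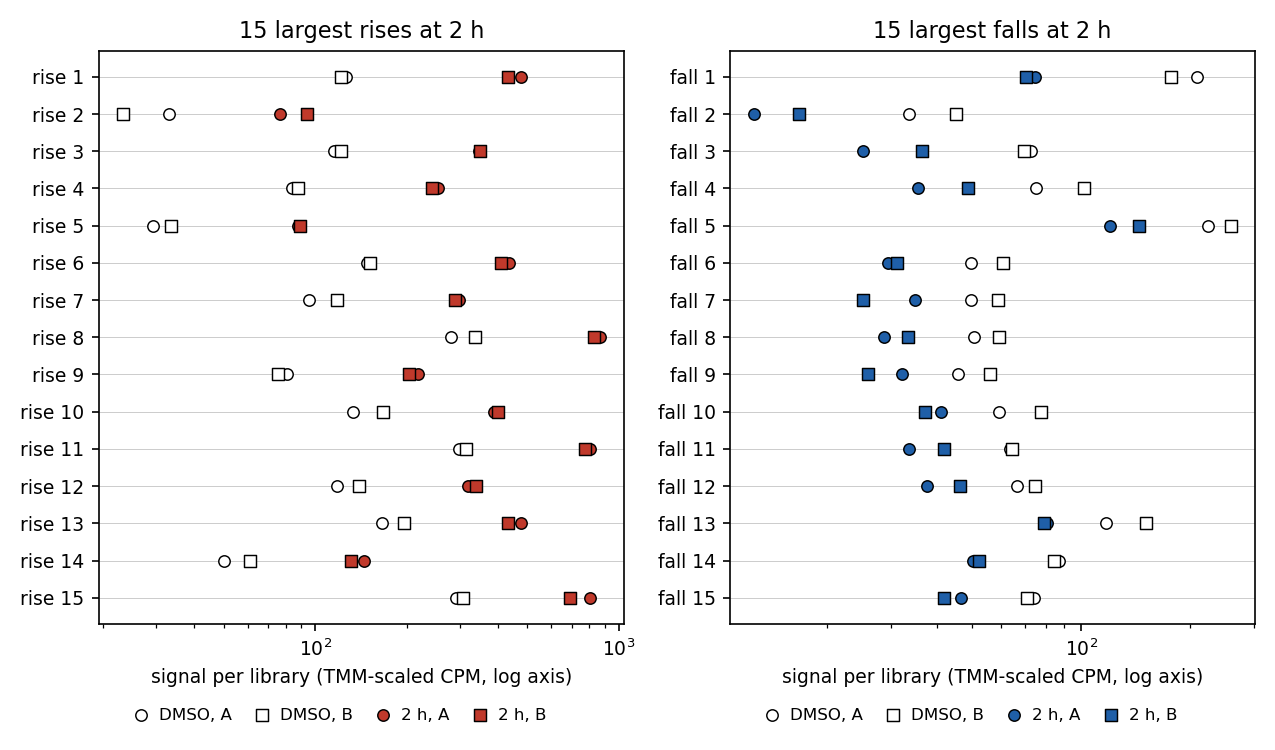
Signal in each library (TMM-scaled CPM, log axis) at the 15 largest rises and the 15 largest falls, with DMSO open and 2 h filled. The groups are apart in all 30 regions, as the naming rule requires. At the rises the lower 2 h library is 2.15 to 3.41 times the higher DMSO library. At the falls the higher 2 h library is 0.42 to 0.70 of the lower DMSO library.

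For 5 of the 15 largest rises the nearest other region was itself called higher, at 1.85 to 27.5 kb. Rises 1 and 6 were each other's nearest region, and rise 3 was the nearest to rise 10, so these are not separate counts. Over all regions 2.22% rose, as did 4.42% of those with the nearest neighbour at 2 to 10 kb. Neither share is matched to this list. For the other 10 rises the nearest region was not called, at 5.63 to 118.85 kb, with log2 fold changes from -0.12 to 0.46 and a median of 0.21. Whether the log2 fold changes of neighbours differ was not tested, and the values and intervals stand side by side.

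The sharpest contrast between close neighbours was on chromosome 11, around a region chosen after its values were seen. At 65266337 the signal was 55.6 and 74.6 CPM in DMSO and 141 and 135 CPM at 2 h (log2 fold change 1.10, 95% interval 0.79 to 1.41, edgeR adjusted p = 3.19e-06). Just 684 bases before it, the region at 65265653 had 60.5 and 80.7 CPM in DMSO and 64.9 and 69.9 CPM at 2 h, an interval of -0.40 to 0.29. The region 1503 bases after it had 77.8 and 129 CPM in DMSO and 84.5 and 104 CPM at 2 h, an interval of -0.46 to 0.23. In DMSO the region after it was the highest of the 3 in both libraries, and at 2 h the middle one was. A further region 8487 bases away, at 65274824, rose by 0.57.

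Among regions with a neighbour up to 2 kb away, 4.39% rose and 0.756% fell. At such shares, unlinked neighbours would give more pairs with 1 call than with 2, so that order is not read as a result. Of 341 pairs of neighbouring regions whose starts lay up to 2 kb apart, 30 held a called region. Both regions rose in 4 pairs, and 1 alone in 22. In those 22 the partner had a median log2 fold change of 0.09 and was above 0 in 13. Its values ran from -0.29 to 0.68, so partners included regions just short of a call and regions with lower signal. Both regions fell in 1 pair and 1 alone in 3. With 1 called region and 1 not called, the difference between the partners was not tested.

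**Figure D3:**
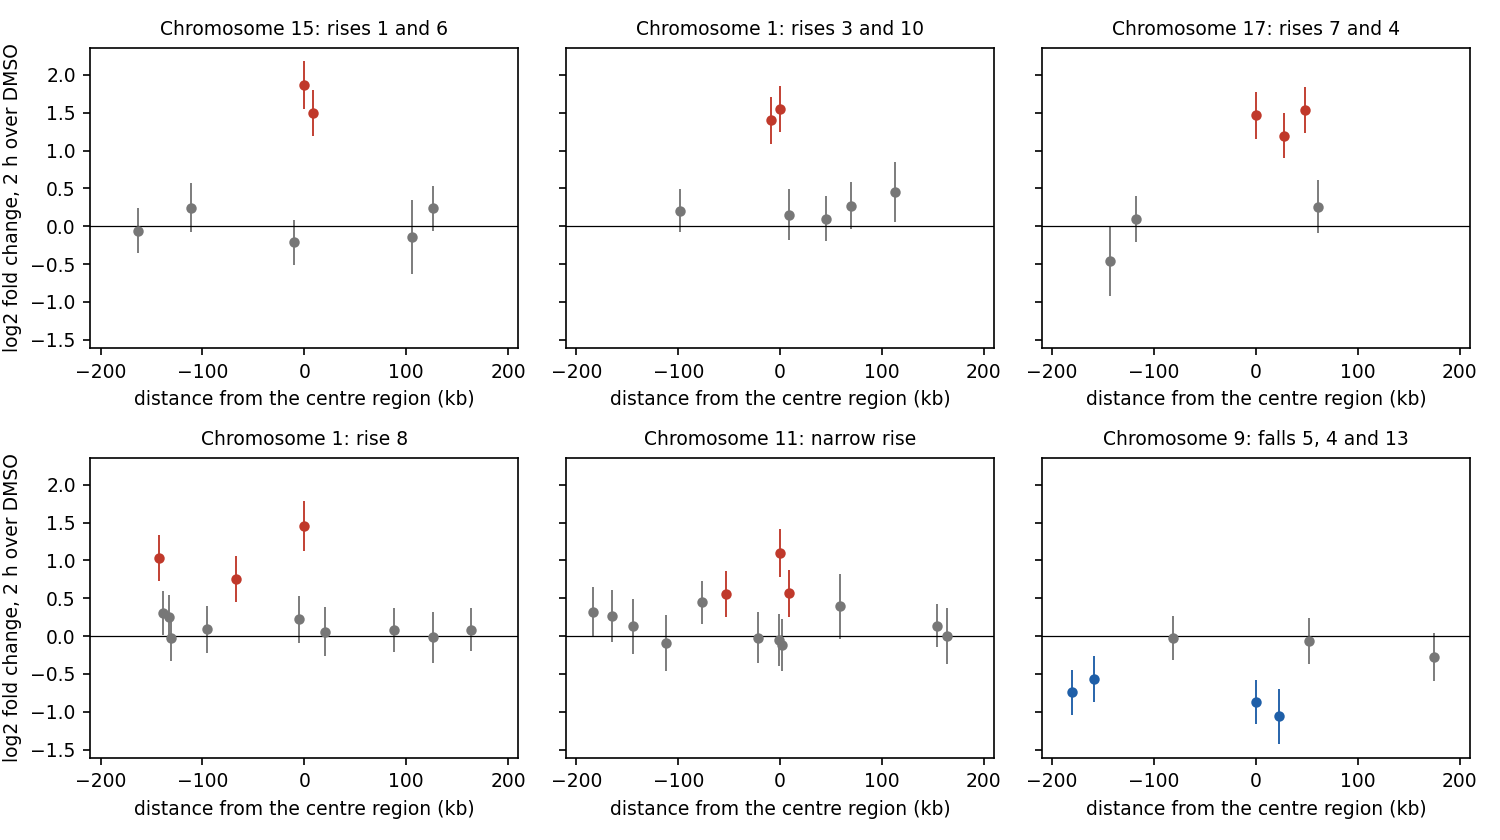
Log2 fold change with its 95% confidence interval at all regions within 200 kb of 6 centres, by distance from the centre region (kb). Called regions are red (higher) or blue (lower), and grey regions between and beside them lie nearer 0, such as the chromosome 9 region between the falls, at -0.02.

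Some rises lay in groups. Joining rises no more than 100 kb apart gave 27 groups with 68 of the 269 rises, and 201 rises had no other rise that close. These counts are to be read beside the shares by distance given below. Over all regions 2.22% rose, against 26.7% within 2 kb of another rise, 6.56% at 50 to 100 kb and 1.58% beyond 500 kb. Each group begins and ends at a rise by construction, so the calls at its ends were fixed in advance. Only 6 groups held 3 or more. The largest, on chromosome 6 from 26026952 to 26285756, held 8 rises among 16 regions. Their log2 fold changes ran from 0.53 to 1.32, and the other 8 regions had a median of 0.39. The region at 26104193 in this group went from 126 and 161 CPM to 273 and 286 CPM. At 26225293, the weakest region of the group, the log2 fold change was -0.31 and was not called.

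A second group on chromosome 6, from 27792209 to 27861060, held 6 rises among 7 regions. The largest was at 27860660, from 121 and 135 CPM to 240 and 229 CPM, and the region not called had a log2 fold change of 0.44. In both chromosome 6 groups most uncalled regions thus had log2 fold changes above 0, short of the threshold.

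Other groups held regions that were not called between the rises. On chromosome 1 from 28832384 to 28975543, 3 of 8 regions rose. The first, at 28832384, went from 128 and 128 CPM to 267 and 257 CPM, while the region at 28844697 had 279 and 253 CPM in DMSO and 266 and 258 CPM at 2 h. That region had the lowest log2 fold change of the 5 not called, -0.02. The 5 ran up to 0.31, with a median of 0.23. At 28908133 the signal went from 279 and 269 CPM to 466 and 459 CPM. On chromosome 17 from 41393142 to 41445467, 3 of 4 regions rose. The highest, at 41438303, went from 545 and 496 CPM to 888 and 826 CPM. The region at 41400793 between them had 477 and 503 CPM in DMSO and 446 and 491 CPM at 2 h, with overlapping libraries.

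Over all regions, the share that rose was higher close to another rise. Of the regions within 2 kb of another rise 26.7% (8 of 30) rose, as did 16.2% (16 of 99) at 2 to 10 kb and 13.6% (16 of 118) at 10 to 20 kb. At 20 to 50 kb it was 3.54% (8 of 226), at 50 to 100 kb 6.56% (20 of 305) and beyond 500 kb 1.58%. Among regions that were not called higher, the median log2 fold change was 0.09 within 2 kb, 0.18 at 2 to 10 kb, 0.12 at 10 to 20 kb and 0.02 at 50 to 100 kb. The closest regions thus did not have the highest median. These counts describe the map and carry no test, since neighbouring regions are not independent.

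**Figure D4:**
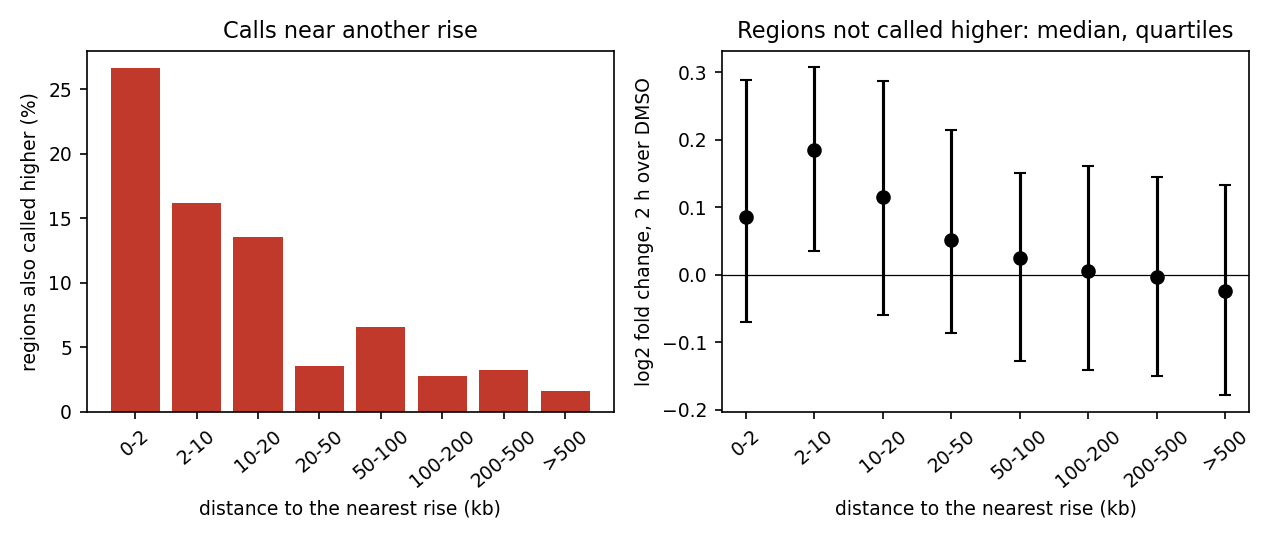
Regions by distance to the nearest other rise (kb), with the percentage that also rose (bars) and the log2 fold change of those not called higher (points, median; bars, quartiles). The percentage goes from 26.7% within 2 kb to 1.58% beyond 500 kb, while the median of the others stays under 0.2.

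Falls were fewer, and 42 of the 48 had no other fall within 100 kb. Over all regions, 40% (2 of 5) within 2 kb of another fall fell, as did 16% (4 of 25) at 20 to 50 kb. At 2 to 10 kb 0 of 1 fell, at 10 to 20 kb 0 of 2 and at 50 to 100 kb 0 of 40. Beyond 500 kb 0.462% fell, against 0.396% over all regions. These shares rest on few regions and carry no test. Fall 1, on chromosome 16 at 1487379, had 209 and 177 CPM in DMSO and 74.7 and 70.7 CPM at 2 h. The 2 h values were close together and far below either DMSO value (log2 fold change -1.41, 95% interval -1.71 to -1.12, edgeR adjusted p = 2.61e-09). The next region, 16754 bases away, had a log2 fold change of -0.25 and was not called.

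Fall 2 and fall 3 were at weaker regions. Fall 2 on chromosome 1 at 209719978 went from 33.5 and 45.2 CPM to 12.6 and 16.7 CPM, on counts of 62 and 66 against 18 and 22. Its log2 fold change of -1.41 had an interval of -2.01 to -0.81, and without 2 h library A the adjusted p was 0.0749. Fall 3 on chromosome 17 at 6458833 went from 72.9 and 69.8 CPM to 25.1 and 36.5 CPM, a log2 fold change of -1.22. Their nearest regions lay 79075 and 85330 bases away, with log2 fold changes of -0.05 and 0.06.

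Chromosome 9 held 3 of the 15 falls within a stretch of 5 regions, whose bounds were set at falls. Fall 4 at 133558924 went from 75.1 and 102 CPM to 35.6 and 48.6 CPM. Fall 5 at 133536057 went from 224 and 259 CPM to 120 and 144 CPM, the highest DMSO signal among the 15 falls. Fall 13 at 133355675 went from 117 and 151 CPM to 80.3 and 79.1 CPM. The fourth region that fell, at 133377115, went from 102 and 97.2 CPM to 71.2 and 63.1 CPM. Between them, the region at 133454593 had 125 and 105 CPM in DMSO and 117 and 109 CPM at 2 h, with an interval of -0.31 to 0.27. Past the stretch, the region at 133588269 was likewise not called, at -0.07.

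The other 9 falls had DMSO means of similar, modest size and log2 fold changes from -0.86 to -0.71. Fall 6 on chromosome 2 at 222437937 went from 49.7 and 60.9 CPM to 29.3 and 31.2 CPM, and fall 14 on chromosome 3 at 112930562 from 86.9 and 84.2 CPM to 50.3 and 52.4 CPM. The rest were fall 7 on chromosome 14 at 23907504, fall 8 on chromosome 10 at 30024409, fall 9 on chromosome 9 at 22447082 and fall 10 on chromosome 16 at 79633788. They were followed by fall 11 on chromosome 9 at 1051568, fall 12 on chromosome 5 at 107006541 and fall 15 on chromosome 10 at 21785194. Each of these 9 calls ended when a single library was left out, with adjusted p-values from 0.0524 to 0.301 and the sign unchanged.

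Of the 15 falls, 9 had no other region within 50 kb, against 1 of the 15 rises. No share over all regions was taken at that distance, so these counts have no base to be read against. Over all calls, 17 of the 48 falls (35.4%) and 30 of the 269 rises (11.2%) had no region within 100 kb, as did 23.2% of all regions (2811). Among the 661 regions with a neighbour up to 2 kb away, 29 rose (4.39%) and 5 fell (0.756%). Among the 1651 regions whose nearest neighbour lay 2 to 10 kb away, 73 rose (4.42%) and 1 fell (0.0606%). Of the 7000 at 10 to 100 kb, 137 rose (1.96%) and 25 fell (0.357%). Of the 2700 at 100 to 1000 kb, 29 rose (1.07%) and 15 fell (0.556%). Of the 111 beyond 1000 kb, 1 rose (0.901%) and 2 fell (1.80%). From 2 kb outward the share that fell went up and the share that rose went down. The 5 falls up to 2 kb broke the first order, and several of these counts are small. Regions at 100 to 1000 kb had lower signal, with a median DMSO level of 53.5 CPM against 80.9 CPM at 2 to 10 kb. The part of level in these contrasts was not tested.

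Rises made up a larger share of regions with high signal. Regions were split by their mean DMSO signal into 10 groups of equal size, from group 1 (lowest) to group 10 (highest), so that the 2 h values did not set the groups. In group 10, 5.85% rose (71 of 1213), against 0.742% (9 of 1213) in group 1. Falls made up 0.824% of group 10 (10 regions) and 0% of group 1. The median standard error went from 0.29 on the log2 scale in group 1 to 0.15 in group 10, so a change of given size is called more easily at high signal.

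The count in group 10 depended on single libraries and on scaling. It was 40 rises without DMSO library A, 27 without 2 h library A and 26 without 2 h library B. Leaving out DMSO library B or either 4 h library raised the count instead. Total count scaling gave 42 and DESeq2 38, against 71 in the main fit. It was higher with limma-voom, at 94, and in a fit of only the 2 h and DMSO libraries, at 101. Cyclic loess scaling, which removes trends with signal by construction, gave 22 rises in group 10 and 11 in group 1. Grouping by the mean of DMSO and 2 h libraries, in which a rise itself lifts a region, gave 113 rises in the highest group and 1 in the lowest.

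The median log2 fold change was -0.07 in group 1 and 0.05 in group 10. In group 10 it was 0.05 to 0.06 with any 1 library left out, but -0.01 with total count scaling and -0.07 with cyclic loess. The DMSO values enter both this grouping and the fold change. Grouped by the mean of DMSO and 2 h libraries, the highest group had 0.04 with total count scaling and -0.02 with cyclic loess. The direction in the highest group thus varied with scaling and with grouping, and the part of each was not tested. In group 1 of the DMSO grouping the median ran from -0.19 without DMSO library A to 0.04 without DMSO library B, so it changed sign with the libraries used. There the median log2 ratio of DMSO library B to A was 0.24, larger than the 2 h shift. The part of this trend in the called rises was not tested.

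**Figure D5:**
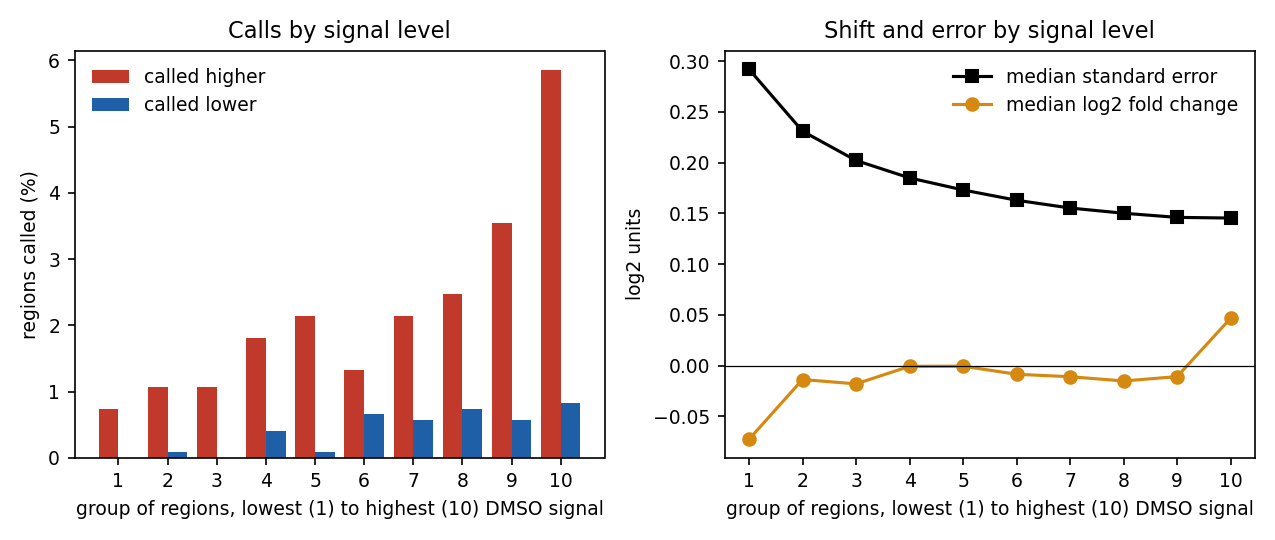
Regions in 10 groups from lowest to highest mean DMSO signal, with the percentage called higher and lower (left) and the median log2 fold change and standard error (right, log2 units). Rises make up 0.742% of group 1 and 5.85% of group 10, and the median standard error goes from 0.29 to 0.15.

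The highest counts of the table did not pass the threshold. The region on chromosome 1 at 121484944 had 16896 and 19484 raw counts under DMSO against 19420 and 22091 at 2 h, and its log2 fold change of 0.43 had an interval of -0.14 to 1.01. Regions on chromosome 7 at 61968821 and chromosome 6 at 58779007 had log2 fold changes of 0.49 and 0.54 and adjusted p-values of 0.416 and 0.282 (edgeR). In each of the 3, DMSO library A was lowest and 2 h library B highest. Together they took 1.77% of DMSO library A and 2.61% of DMSO library B, against 2.61% and 3.21% at 2 h. A fit with this percentage as a covariate, chosen after seeing the data, kept the call of 218 of the 269 rises and 37 of the 48 falls. The part of this percentage in the called changes was not tested beyond that fit.

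By chromosome, rises were found on all but Y, and falls were found on 15 of 24. The 9 without a fall were 7, 11, 13, 18, 19, 20, 22, X and Y. Chromosome 19 had the most rises of these, 21 of its 777 regions, or 2.70%, near the 2.22% over all regions. The share of rises was highest on chromosome 6, at 36 of its 637 regions, or 5.65%. The groups of 8 and 6 rises described above lie there. Chromosome 9 was the only one with more falls than rises, 8 against 5 of its 560 regions. These are counts without a test, and 4 of the 8 falls on chromosome 9 lie in the stretch described above.

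The 4 h libraries show where the same regions stood later. Both times are set against the same DMSO libraries, so the values are given side by side and their likeness is not counted as a result. Rise 1 had 475 and 431 CPM at 2 h and 370 and 371 CPM at 4 h, against 126 and 122 CPM in DMSO. Rise 7 had 297 and 288 CPM at 2 h and 212 and 271 CPM at 4 h, with its 4 h libraries wide apart. At rise 9 the 4 h values of 207 and 200 CPM overlapped with the 2 h values of 218 and 204 CPM. Over the 15 rises the 4 h mean was 1.86 to 2.98 times the DMSO mean, and in 14 both 4 h libraries lay below both 2 h libraries.

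Among the falls the order of 2 h and 4 h was mixed. Fall 1 had 74.7 and 70.7 CPM at 2 h and 47.9 and 55.4 CPM at 4 h, and fall 5 had 120 and 144 CPM at 2 h and 97.7 and 88.4 CPM at 4 h. Both were lower at 4 h, without overlap between the times. Fall 6 had 29.3 and 31.2 CPM at 2 h and 41.0 and 44.7 CPM at 4 h, between its 2 h and DMSO levels. The 4 h mean was lower than the 2 h mean in 7 of the 15 falls, and in 5 both 4 h libraries lay above both 2 h libraries. The regions were ranked by their 2 h change, which by itself favours values nearer DMSO at another time, and the change from 2 h to 4 h was not tested here.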

How the data were processed

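The authors deposited raw counts of Ser5 Pol II ChIP-seq in 6 columns, for 12123 regions. Tools listed in the submitters' processing notes are DiffBind, DESeq2, MACS2, Bowtie2 and Trimmomatic 0.32, with the builds hg19 and dm3. The part each played, and the way regions were called and counted, is not stated there. Columns were tied to groups by name, and their letters were not tied to the labels' replicate numbers. No spike-in scaling was applied, since fly reads have no rows in the table used, so a change of all regions by 1 factor would not be seen. Counts were fitted in R 4.3.3 with edgeR 4.0.16 (TMM, quasi-likelihood test, Benjamini-Hochberg over all regions), with all 6 libraries in 1 fit. The filter filterByExpr removed 0 regions. Standard errors are the log2 fold change over the square root of F, and 95% intervals use the t distribution. Libraries of a group differed by more than sampling noise (chi-square per degree of freedom 2.33, 1.50 and 2.26 for DMSO, 2 h and 4 h), so each counts as 1. The script was tested on simulated data. Alternatives used limma 3.58.1 and DESeq2 1.42.0, and tables and figures Python 3.11.15.

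The named regions are the 15 largest rises and falls that were called, had a mean of at least 20 counts and had groups that did not overlap. The rule's further items by gene and class were not applied. Other regions given by position are neighbours and groups of these, or of the highest counts, chosen after their values were seen. Members, lists and groupings were chosen with earlier results of these data known. Region classes, gene lists, promoter against gene body and lineage markers, all in the design, need an hg19 annotation, which was not used here, and were not run. Groupings by signal, spacing and distance took their place after the data had been seen.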

Additional observations from a re-analysis of the deposited data

How the results depend on the processing

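Among the 30 named regions the sign was the same in every alternative run. The 15 rises kept their call in all 283 alternative values with an adjusted p. The 15 falls kept it in 239 and lost it in 33. Alternatives that gave a region no adjusted p are not counted.

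Counts of calls moved more. Total count scaling gave 87 falls and 166 rises, cyclic loess with limma-trend 26 and 130, and DESeq2 3 and 96. A fit of only the 2 h and DMSO libraries gave 81 falls. An adjusted p threshold of 0.01 gave 10 falls and 133 rises, and of 0.1 gave 112 falls. With each library's percentage of counts at the 3 highest regions as a covariate, an alternative chosen after seeing the data, there were 135 falls. In that fit 218 of the 269 rises and 37 of the 48 falls of the main fit kept their call. Leaving out 1 library gave 15 to 87 falls and 127 to 365 rises. With a replicate block by column letter there were 230 falls and 629 rises. The A libraries' deviations from their group means correlated across regions at 0.22 for DMSO with 2 h, 0.28 for DMSO with 4 h and 0.16 for 2 h with 4 h. Each group has only 2 letters, and nothing in the labels says that a letter marks a shared batch. Fall 2 rests on 18 and 22 counts at 2 h. Alternatives for region classes, gene lists and promoter against gene body were not run, because those results were not.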
